A study of Mus musculus with 10 samples.

Results

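The connexin genes of the vessel wall and liver were followed in RNA from mouse liver endothelial cells. The members were fixed by name: Gja1, Gja4, Gja5, Gjc1, Gjb1 and Gjb2, which is 6 of the 55385 genes listed in each file, and all 6 passed the filter on low counts. The series compared 5 libraries labelled Alk1-HEC-KO (genotype KO) with 5 labelled Control (genotype WT). Acvrl1, which encodes ALK1, is the targeted gene. In both groups, non-parenchymal liver cells were separated on a Nycodenz gradient and endothelial cells were captured with anti-CD146 magnetic beads. No treatment is given in the labels. The sources used here do not give the driver of the deletion, the age of the mice, or whether each library came from its own animal. The p-values therefore reflect spread among libraries, part of which may be technical.

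Connexins are membrane proteins that assemble into hemichannels, and hemichannels of neighbouring cells dock to form gap junctions, which let ions and small molecules pass from cell to cell. Cx37 (Gja4), Cx40 (Gja5) and Cx43 (Gja1) are the main connexins of vessel endothelium, where Cx37 and Cx40 are best known from arteries, and Cx45 (Gjc1) is known from smooth muscle and the embryonic heart and vessels. Cx32 (Gjb1) and Cx26 (Gjb2) are the gap junction proteins of hepatocytes. ALK1 is an endothelial receptor for BMP9 and BMP10 that signals through SMAD proteins.

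Total estimated counts lay between 23489494 and 23602771 per library. Acvrl1 was at 114 to 136 CPM in controls (counts scaled to a common library size with TMM factors) and at 239 to 258 CPM in the libraries labelled Alk1-HEC-KO (log2 fold change 0.96 ± 0.05 SE, edgeR adjusted p = 1.74e-07). The targeted gene thus went against the label in whole-gene counts, in which a deleted exon cannot be seen. The group is therefore named by its label, as knockout-labelled, and directions are given for it relative to the controls. The 8 general endothelial markers summed to 11970 to 13630 CPM in controls and 11650 to 12660 CPM in knockout-labelled libraries. These markers moved apart: 3 rose, 3 fell and 2 did not pass, where 10.6% of all genes tested rose and 9.08% fell. Mcam, which encodes CD146, the antigen of the capture beads, rose from 330.1 ± 44.4 to 541 ± 35.8 CPM (SD, n = 5 each; log2 fold change 0.71 ± 0.09 SE, edgeR adjusted p = 1.09e-04). It was called in 22 of 22 alternatives, and its part in the levels of the connexins was not tested. Transcripts of other liver cells were also present: the 12 hepatocyte markers summed to 505 to 1984 CPM in controls and 502 to 1116 CPM in knockout-labelled libraries, the 6 Kupffer cell markers to 407 to 1297 and 364 to 925 CPM, the 9 stellate cell and fibroblast markers to 122 to 214 and 123 to 203 CPM, the 8 smooth muscle and pericyte markers to 55.7 to 93.0 and 67.8 to 109 CPM, and the 4 mesothelial markers to 34.5 to 65.0 and 48.0 to 94.6 CPM. None of these markers was at 0 in all libraries. The hepatocyte sum stood apart in controls 2 and 4, with 1882 and 1984 CPM against 505 to 866 CPM in controls 1, 3 and 5. Other sums also had a high control. The stellate cell and fibroblast sum was 214 CPM in control 4, against 122 to 147 CPM in the other controls. The mesothelial sum was 65.0 CPM in control 2 against 34.5 to 44.1 CPM, and the Kupffer cell sum 1297 CPM in control 3 against 407 to 734 CPM.

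The promoters of 4 members are shown because these genes behaved differently from one another: Gja5 is the member that rose, Gja4 and Gja1 are the most abundant, and Gjb2 varied most between controls relative to its mean (SD 2.94 on a mean of 3.45 CPM). RefSeq promoters matched 5 of the 6 members. Each line gives the 250 bases before the annotated start on GRCm38.p6, 5′ to 3′ on the strand of the gene. Capitals mark matches, on both strands, to GGCGCC (an element bound by BMP-activated SMADs), TGAGTCA (AP-1), GGGCGG (SP1), CACCC (the core bound by KLF factors) or TATAAA.
Gja5, chr3:97032152-97032401, plus strand: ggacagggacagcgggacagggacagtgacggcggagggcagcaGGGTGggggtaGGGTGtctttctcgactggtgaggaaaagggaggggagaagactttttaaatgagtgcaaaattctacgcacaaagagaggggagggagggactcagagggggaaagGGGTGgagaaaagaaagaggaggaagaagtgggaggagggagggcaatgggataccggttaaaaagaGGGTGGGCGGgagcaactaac
Gja4, chr4:127314040-127314289, minus strand: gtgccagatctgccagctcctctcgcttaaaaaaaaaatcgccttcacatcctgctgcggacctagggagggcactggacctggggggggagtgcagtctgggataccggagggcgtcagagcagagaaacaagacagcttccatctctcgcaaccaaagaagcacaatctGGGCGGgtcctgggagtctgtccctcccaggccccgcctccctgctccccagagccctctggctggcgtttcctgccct
Gja1, chr10:56377050-56377299, plus strand: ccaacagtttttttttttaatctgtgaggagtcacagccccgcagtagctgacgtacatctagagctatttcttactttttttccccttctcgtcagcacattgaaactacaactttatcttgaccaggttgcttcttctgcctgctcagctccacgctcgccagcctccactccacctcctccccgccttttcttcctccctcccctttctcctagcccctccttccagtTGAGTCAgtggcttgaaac
Gjb2, chr14:57104703-57104952, minus strand: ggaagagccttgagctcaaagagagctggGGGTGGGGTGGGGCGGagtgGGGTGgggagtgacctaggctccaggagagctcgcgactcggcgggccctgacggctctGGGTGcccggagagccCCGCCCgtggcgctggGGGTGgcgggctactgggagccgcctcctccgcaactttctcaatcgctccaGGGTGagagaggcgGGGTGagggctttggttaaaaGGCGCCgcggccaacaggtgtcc

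In the Gja5 promoter CACCC was found 4 times, each on the opposite strand and therefore read as GGGTG, beginning 206, 195, 88 and 21 bases before the start. The last of these shares its final base with a GGGCGG match that begins 17 bases before the start. Gja4 held a single GGGCGG, 79 bases before its start, and Gja1 a single TGAGTCA, 19 bases before its start. Gjb2 held GGCGCC 23 bases before its start, with 2 GGGCGG and 7 CACCC matches, in a window that was 69.2% G or C against a median of 52.4% over all promoters. Among all 32851 RefSeq promoters of the same length, CACCC was in 52.0%, GGGCGG in 32.7%, TATAAA in 12.4%, GGCGCC in 9.6% and TGAGTCA in 4.5%. The motifs were chosen with the values of these genes known, and a match describes letters, not a site of binding.

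Of the 6 members, Gja5 alone passed the test and rose, and none fell (edgeR quasi-likelihood test, Benjamini-Hochberg adjusted p under 0.05). Over all 15043 genes tested, 19.7% were called, 10.6% higher and 9.08% lower, so 1 call among 6 members is near the background. At an unadjusted p under 0.05, Gja4, Gjb1 and Gjb2 also lay lower and Gjc1 higher. The share of all genes at that cut is not given here, so nothing is read from this number of members. The median log2 fold change of the members was -0.64, where that of all genes tested was 1e-04. This median is no common shift, since the members ran from -1.69 (Gjb2) to 0.74 (Gja5). Its lowest values were those of the hepatocyte connexins Gjb1 and Gjb2. Without controls 2 and 4, a fit chosen after seeing the data, the members ran from -0.48 (Gjb1) to 0.63 (Gja5). DESeq2 called 3 members: Gja5 higher, and Gjb1 and Gjb2 lower. It called 3351 of the 15043 genes, 1743 higher and 1608 lower, so its background is not that of edgeR.

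Gja5 (ENSMUSG00000057123.14), which encodes Cx40, is a plus-strand gene of chromosome 3 (96904693 to 97077416, GRCm38), and the RefSeq start used for its promoter lies inside this span. Controls 1 to 5 held 29.2, 29.4, 24.2, 20.4 and 38.0 CPM, and knockout-labelled libraries 1 to 5 held 43.5, 55.4, 46.5, 47.0 and 43.4 CPM. Every knockout-labelled library lay above every control, which was so for 15.4% of all genes tested in either direction. Gja5 averaged 28.2 ± 6.61 CPM in controls against 47.2 ± 4.9 CPM (SD, n = 5 each), a 1.67-fold rise (log2 fold change 0.74 ± 0.14 SE, 95% interval 0.42 to 1.06, edgeR adjusted p = 0.00411). In the deposited TPM, which are scaled by transcript length, Gja5 averaged 15.9 ± 4.86 in controls against 27.7 ± 4.52 (SD, n = 5 each). The call held in 22 of 22 alternatives, with log2 fold changes of 0.60 to 0.87. The annotated span of Gja5 also holds exons of 4 genes on the other strand. Of these, Gpr89 shares 165 exonic bases with Gja5 and was at 518 to 945 counts per library, and the other 3 share none and held at most 5 counts. Whether the counting used strand is not stated in the labels. Bile duct markers moved in the same direction as Gja5: 6 of 7 rose, where 10.6% of all genes tested did. Their sum was 187 to 266 CPM in controls and 366 to 625 CPM in knockout-labelled libraries. Their part in the rise of Gja5 was not tested.

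Gja4 (ENSMUSG00000050234.7), which encodes Cx37, was the most abundant connexin in every library. It is a minus-strand gene of chromosome 4 (127311421 to 127314039) with 1 annotated transcript. Controls 1 to 5 held 259, 700.0, 272, 284 and 225 CPM, and knockout-labelled libraries 1 to 5 held 261, 159, 181, 208 and 164 CPM. Control 2 stood far above the rest, and knockout-labelled library 1 lay within the range of the other controls, so the groups overlapped. Gja4 averaged 348 ± 198 CPM in controls against 194 ± 41.8 CPM (SD, n = 5 each; log2 fold change -0.84 ± 0.33 SE, 95% interval -1.59 to -0.09, edgeR adjusted p = 0.112). Without control 2 the log2 fold change was -0.42 ± 0.14 SE (adjusted p = 0.0735). With the hepatocyte covariate it was -0.24 ± 0.30 SE (adjusted p = 0.705). Some markers in that covariate also fell between the groups, so no fit with it can tell hepatocyte RNA and genotype apart. Control 2 also had high hepatocyte transcripts, 1882 CPM in sum, but control 4, with 1984 CPM, did not have high Gja4. The part of hepatocyte RNA in the level of control 2 was not tested.

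Gja1 (ENSMUSG00000050953.10), which encodes Cx43, is a plus-strand gene of chromosome 10 (56377330 to 56402513). Controls 1 to 5 held 124, 169, 139, 159 and 116 CPM, and knockout-labelled libraries 1 to 5 held 151, 74.5, 85.8, 85.1 and 126 CPM. Knockout-labelled libraries 2, 3 and 4 were below every control, and libraries 1 and 5 were inside the range of the controls. Gja1 averaged 142 ± 22.4 CPM in controls against 104 ± 32.5 CPM (SD, n = 5 each), and the difference did not pass the test (log2 fold change -0.44 ± 0.20 SE, 95% interval -0.90 to 0.02, edgeR adjusted p = 0.174). Without knockout-labelled library 1 it passed, with a log2 fold change of -0.61 ± 0.17 SE (adjusted p = 0.0351). With the hepatocyte covariate it was -0.24 ± 0.25 SE (adjusted p = 0.638), and without controls 2 and 4 it was -0.28 ± 0.24 SE (adjusted p = 0.559).

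Gjc1 (ENSMUSG00000034520.14), which encodes Cx45, was low in all libraries. It is a minus-strand gene of chromosome 11 (102799579 to 102819700). With 49 to 103 counts per library, controls 1 to 5 held 3.24, 3.35, 2.53, 2.21 and 2.18 CPM, and knockout-labelled libraries 1 to 5 held 3.36, 3.21, 4.36, 2.90 and 3.77 CPM. Controls 1 and 2 lay among the knockout-labelled libraries. The log2 fold change was 0.38 ± 0.17 SE (95% interval 0.00 to 0.76, edgeR adjusted p = 0.154), and no alternative called it.

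**Figure D1:**
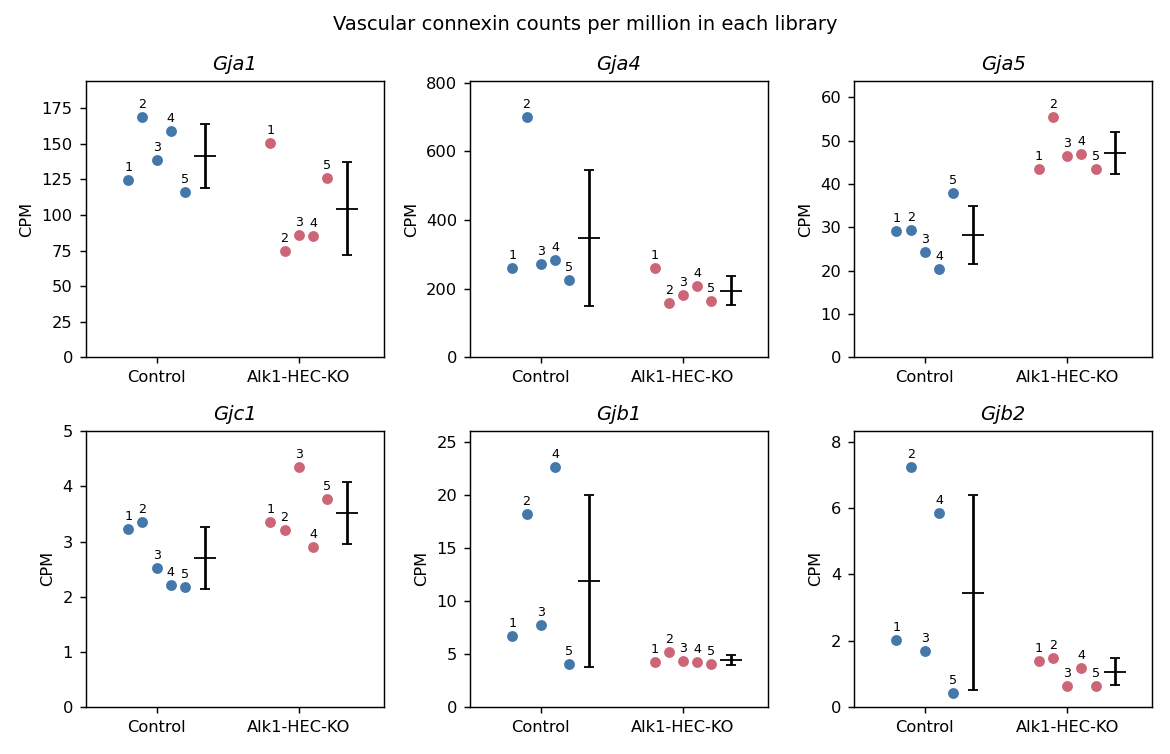
Level of each vascular connexin in CPM (vertical axes from 0) in the 5 control and 5 knockout-labelled (Alk1-HEC-KO) libraries. Points are libraries with their numbers and bars are the mean ± SD. Gja5 shows no overlap between the groups, Gja4 has control 2 at 700.0 CPM, and Gjb1 and Gjb2 are highest in controls 2 and 4.

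The hepatocyte connexins were highest in controls 2 and 4. Gjb1 (ENSMUSG00000047797.14), encoding Cx32, is a plus-strand gene of the X chromosome (101376378 to 101385629). Controls 1 to 5 held 6.64, 18.2, 7.76, 22.6 and 4.01 CPM, and knockout-labelled libraries 1 to 5 held 4.20, 5.22, 4.36, 4.25 and 4.06 CPM. Control 5 was below all knockout-labelled libraries and the other controls were above them all. Gjb1 averaged 11.9 ± 8.09 CPM in controls against 4.42 ± 0.46 CPM (SD, n = 5 each; log2 fold change -1.42 ± 0.44 SE, 95% interval -2.42 to -0.42, edgeR adjusted p = 0.0515). It passed with DESeq2 (adjusted p = 0.0109), a stricter filter (0.0489), a fit that was not robust (0.029), without control 1 (-1.57, adjusted p = 0.0429) and without control 5 (-1.64, adjusted p = 0.0115). Without controls 2 and 4 its log2 fold change was -0.48 ± 0.20 SE (adjusted p = 0.165).

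Gjb2 (ENSMUSG00000046352.7), encoding Cx26, is a minus-strand gene of chromosome 14 (57098600 to 57104702). With 10 to 169 counts per library, controls 1 to 5 held 2.02, 7.25, 1.70, 5.85 and 0.427 CPM, and knockout-labelled libraries 1 to 5 held 1.39, 1.48, 0.635, 1.18 and 0.627 CPM. Control 5 held the lowest level and controls 2 and 4 the highest, with the knockout-labelled libraries between them. The log2 fold change was -1.69 ± 0.65 SE (95% interval -3.16 to -0.23, edgeR adjusted p = 0.102). It passed with DESeq2 (adjusted p = 0.0167) and without control 5 (-1.98, adjusted p = 0.0179). Without controls 2 and 4 it was -0.38 ± 0.47 SE (adjusted p = 0.69), and with the hepatocyte covariate its sign turned (0.31 ± 0.26 SE, adjusted p = 0.57).

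The hepatocyte markers summed to 835, 1882, 866, 1984 and 505 CPM from control 1 to control 5, and to 891, 1116, 579, 666 and 502 CPM from knockout-labelled library 1 to library 5. The libraries with the highest sums, controls 2 and 4, were also the highest for both Gjb1 and Gjb2, and control 5 was second lowest of all in the sum and lowest in both genes. Knockout-labelled libraries 1 and 2 had higher sums than controls 1 and 3 but less Gjb1 and Gjb2. Alb was at 457 and 727 CPM in these libraries, against 395 and 344 CPM in controls 1 and 3. Pck1 was at 101 and 46.1 CPM against 27.1 and 20.4 CPM, and Tat at 74.1 and 56.5 against 28.6 and 30.0 CPM. Other markers went both ways. Apoa1 was at 36.7 and 52.2 CPM against 60.2 and 77.6 CPM, and Ahsg at 70.1 and 81.4 against 65.2 and 80.6 CPM. Over all genes tested, 10.6% rose and 9.08% fell. Of the 12 hepatocyte markers 4 fell, none rose and 8 did not pass, with a median log2 fold change of -1.18. The markers did not move together. Log2 fold changes were -3.30 for Cyp2e1 and -3.10 for Cyp3a11, which passed. Alb (-0.08), Cps1 (-0.15), Tat (0.62) and Pck1 (0.90) did not pass. The list thus does not show a uniform fall of hepatocyte transcripts. The number that fell was 2 without control 2, control 4, both, or any 1 of the knockout-labelled libraries, and 6 without control 5. The part of hepatocyte RNA in the levels of Gjb1 and Gjb2 was not tested. The covariate is made from these markers, 4 of which fell between the groups, so a fit with it cannot separate hepatocyte RNA from genotype. With that covariate the log2 fold change of Gjb1 was -0.22 ± 0.28 SE (adjusted p = 0.693). In these bulk samples fewer cells of a type and less RNA per cell cannot be told apart.

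**Figure D2:**
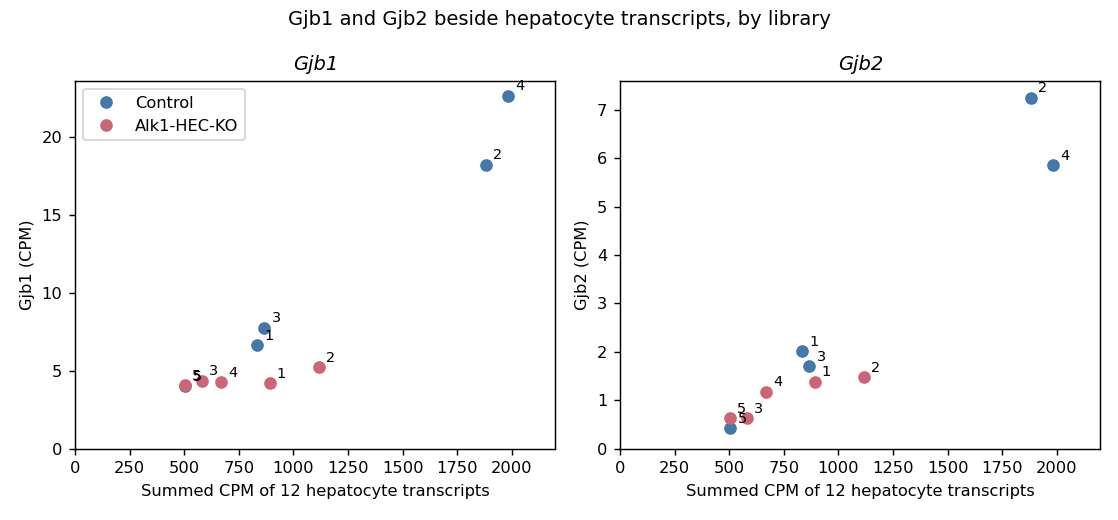
Gjb1 and Gjb2 (vertical axes, CPM) against the summed CPM of 12 hepatocyte transcripts (horizontal axes) in each library, with library numbers beside the points. Controls 2 and 4 are at the upper right in both panels, and the other 8 libraries have sums of at most 1116 CPM.

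Levels can be compared between genes in TPM. In controls the order of means was Gja4 (357 ± 208 TPM), Gja1 (75.3 ± 9.85), Gja5 (15.9 ± 4.86), Gjb1 (12.9 ± 8.28), Gjc1 (2.54 ± 0.62) and Gjb2 (2.34 ± 1.98, SD, n = 5 each). Gja5 and Gjb1 changed places in controls 2 and 4, as did Gjc1 and Gjb2, so these neighbours were within their spread. In knockout-labelled libraries the order was Gja4 (212 ± 42.4 TPM), Gja1 (59.7 ± 18.9), Gja5 (27.7 ± 4.52), Gjb1 (5.25 ± 0.59), Gjc1 (3.29 ± 0.57) and Gjb2 (0.781 ± 0.298, SD, n = 5 each), and it was the same in each of the 5 libraries.

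As shares of the summed TPM of all 20 connexins, Gja4 made up 74.3% ± 5.69 in controls and 68.2% ± 4.0 in knockout-labelled libraries (SD, n = 5 each). Gja1 made up 17.6% ± 4.01 and 19.1% ± 4.03. Gja5 made up 4.35, 1.97, 3.61, 2.56 and 6.73% in controls 1 to 5 and 6.11, 13.4, 9.65, 8.42 and 8.67% in knockout-labelled libraries 1 to 5. Control 5 had a higher share of Gja5 than knockout-labelled library 1, and otherwise the knockout-labelled libraries were above the controls. The ratio of Gja4 to Gja5 TPM had a median of 20.3 in controls (10.6 to 42.7) and 7.21 in knockout-labelled libraries (4.94 to 11.5). These shares and ratios are descriptions and were given no test.

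**Figure D3:**
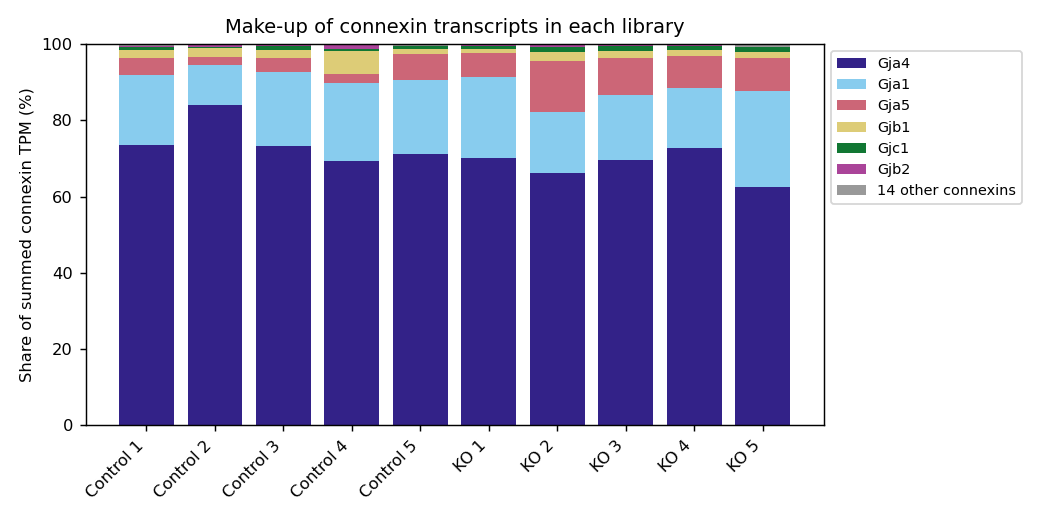
Share of each connexin in the summed TPM of 20 connexin genes (vertical axis, percent) in each library; KO stands for the knockout-labelled libraries. Gja4 takes the largest part of every bar, and the Gja5 part runs from 1.97 to 6.73% in controls and from 6.11 to 13.4% in knockout-labelled libraries.

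Beyond the members, 13 connexin genes did not pass the filter on low counts. They held at most 26 counts in any library, and Gja10, Gjd2 and Gje1 had no count in any. Of the 3 pannexins, a separate family of channel proteins, Panx1 alone passed the filter, with 2.59 ± 0.88 CPM in controls against 2.43 ± 0.567 CPM (SD, n = 5 each; adjusted p = 0.849 by edgeR).

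Several genes whose proteins bind connexins or take part in their turnover rose. Of 14 listed, 5 rose, none fell and 9 did not pass, with a median log2 fold change of 0.25. Over all genes tested, 10.6% rose and 9.08% fell. Cav1, the coat protein of caveolae, rose from 112 ± 14.1 to 496 ± 57.3 CPM (SD, n = 5 each; log2 fold change 2.15 ± 0.10 SE, edgeR adjusted p = 4.96e-08). The log2 fold change was 0.91 ± 0.11 SE for Dbn1, the actin-binding protein drebrin, and 0.39 ± 0.07 SE for Ctnnb1, beta-catenin, and both passed. Tjp1, the scaffold ZO-1 that binds Cx43, held 355 ± 29.6 CPM in controls against 338 ± 20.5 CPM (SD, n = 5 each; adjusted p = 0.51 by edgeR). Cnst, consortin, which takes part in connexin transport to the membrane, was at 47.7 ± 3.33 and 46.1 ± 2.79 CPM (adjusted p = 0.646).

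Transcription factors reported to act on connexin genes moved both ways. Over all genes tested, 10.6% rose and 9.08% fell. Of 10 factors listed, 9 were tested, 2 rose, 2 fell and 5 did not pass, with a median log2 fold change of 0.0024. The number that rose was 0 and that fell 1 without controls 2 and 4. Gata4, which acts on Gja5 in the heart, fell from 481 ± 32.9 to 288 ± 20.2 CPM (SD, n = 5 each; log2 fold change -0.74 ± 0.06 SE, edgeR adjusted p = 6.92e-06). The T-box repressor Tbx2 was at 129 ± 13.0 and 157 ± 18.4 CPM (adjusted p = 0.0391), and that call ended without any of controls 1, 4 and 5 or knockout-labelled libraries 2 to 5 (adjusted p from 0.059 to 0.109). Klf4, a flow-responsive factor, was at 88.3 ± 13.5 and 135 ± 34.1 CPM (adjusted p = 0.0379), a call that ended without any of controls 1, 2, 3 and 5 or knockout-labelled libraries 3, 4 and 5 (adjusted p from 0.0616 to 0.0835). Tbx3, at 1.01 ± 0.74 and 0.259 ± 0.209 CPM (adjusted p = 0.0426), lost its call without control 2 or 4 or any of knockout-labelled libraries 2 to 5 (adjusted p from 0.0612 to 0.103). On log2 TPM its fold change was -0.24 with a pseudocount of 1 and -0.95 with 0.1 (limma adjusted p = 0.242 and 0.199), and with no filter it was -1.94 (edgeR adjusted p = 0.0954), against -1.93 in the main test. The hepatocyte covariate ended the calls of Tbx2 and Klf4 at fold changes as large as before, 0.33 against 0.29 and 0.62 against 0.61 on the log2 scale, with larger SEs (adjusted p = 0.104 and 0.185). With it Tbx3 was at -0.88 (adjusted p = 0.38), and without controls 2 and 4 at -1.08 (adjusted p = 0.276). The replicate block ended the calls of Tbx2 and Klf4 (adjusted p = 0.0598 and 0.0975). Klf2, another flow-responsive factor, was at 509 ± 106 and 495 ± 117 CPM (adjusted p = 0.916). The AP-1 subunits Jun and Fos did not pass (adjusted p = 0.691 and 0.371).

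Among genes of arterial endothelium, the vessel type in which Cx37 and Cx40 are best known, 5 of 12 rose, 1 fell, 5 did not pass and 1 was not tested. Over all genes tested, 10.6% rose and 9.08% fell. Sema3g, a semaphorin, rose from 3.08 ± 1.24 to 18.9 ± 1.49 CPM, Cxcr4, a chemokine receptor, from 7.76 ± 3.18 to 38.3 ± 8.26 CPM, and Unc5b, a netrin receptor, from 15.8 ± 2.08 to 56.9 ± 5.48 CPM (SD, n = 5 each). Efnb2, the ligand ephrin-B2, rose by 0.75 ± 0.12 on the log2 scale (SE). Bmx, a tyrosine kinase of arterial endothelium, went the other way, from 8.74 ± 1.13 to 5.45 ± 0.644 CPM (SD, n = 5 each; log2 fold change -0.68 ± 0.12 SE, edgeR adjusted p = 0.00152), with no overlap between the groups. The 5 that did not pass had log2 fold changes from -0.24 to 0.40. The summed level of the list was 1270 to 1521 CPM in controls and 1456 to 1810 CPM in knockout-labelled libraries. Its median log2 fold change was 0.40, against 0.74 for Gja5 and -0.84 for Gja4. Whether a change in the share of arterial cells had a part in the rise of Gja5 was not tested.

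**Figure D4:**
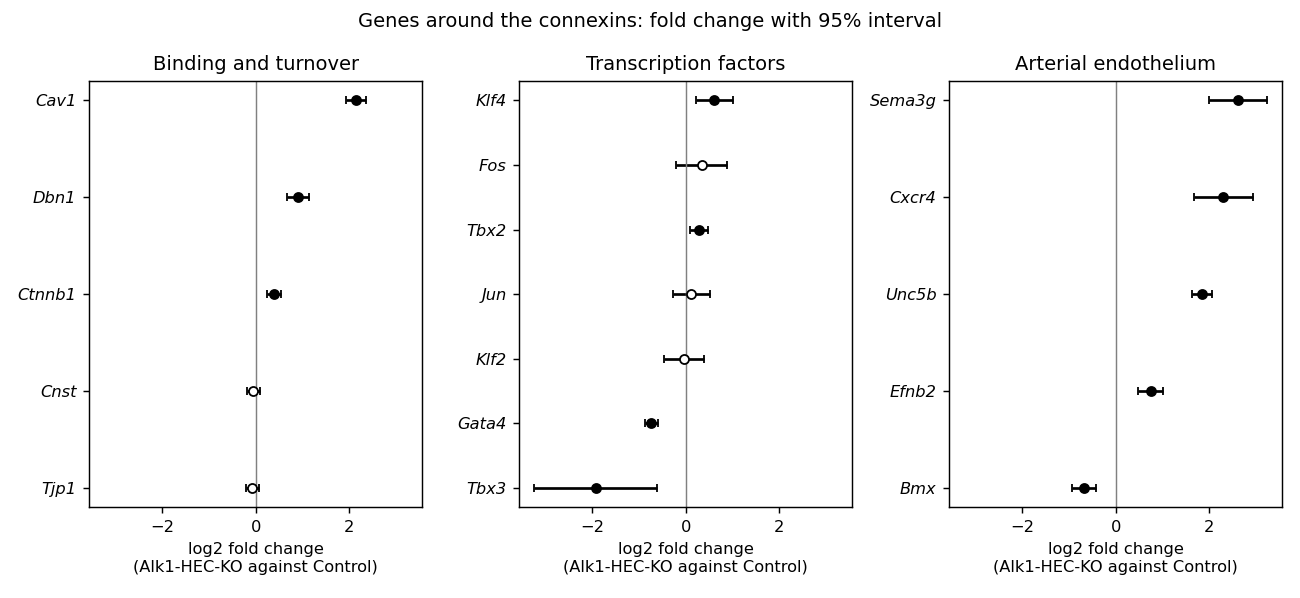
Log2 fold changes (horizontal axes, knockout-labelled against control) with 95% intervals for the genes named from the binding and turnover, transcription factor and arterial lists. Filled points passed an adjusted p of 0.05: Cav1, Sema3g, Cxcr4 and Unc5b are far to the right, and Gata4, Bmx and Tbx3 to the left.

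The genes whose levels deviated from the group means most like each member were named by Pearson's r over the 10 libraries, over 10174 or 10175 protein-coding genes averaging 5 CPM or more. They were selected by this value, so no p is given. For Gjb2 they were Apoa5 (r = 0.99, Spearman's rho = 0.98), Mug1 (r = 0.99, rho = 0.95) and Mup3 (r = 0.99, rho = 0.98), all genes of hepatocyte secretion, of which Mup3 belongs to a near-identical family whose counts are uncertain. For Gjb1 they were Vtn (r = 0.98, rho = 0.92), Col18a1 (r = 0.98, rho = 0.92) and Proc (r = 0.98, rho = 0.95), of which Vtn, vitronectin, and Proc, protein C, are hepatocyte plasma proteins. For Gja5 they were Phf6 (r = 0.95, rho = 0.83), Emp1 (r = 0.91, rho = 0.85) and Dis3l (r = 0.91, rho = 0.89). Emp1, a membrane protein, rose by 2.94 on the log2 scale between the groups (adjusted p = 1.03e-05), while Phf6 and Dis3l did not pass. For Gja4, Icosl came first (r = 0.91), with a lower rho of 0.58. For Gja1 the nearest was Cxcl10 (r = 0.96, rho = 0.98) and for Gjc1 Homer3 (r = 0.93, rho = 0.93).

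**Figure D5:**
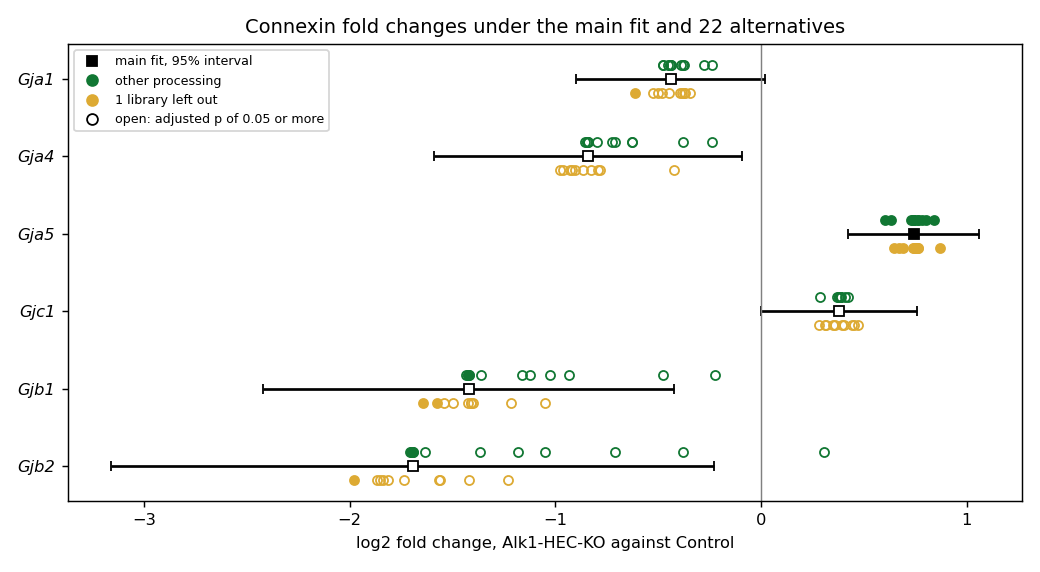
Log2 fold change of each connexin (horizontal axis, knockout-labelled against control) in the main test (squares with 95% interval) and in 22 alternatives (green, other processing; yellow, 1 library left out). Filled symbols passed an adjusted p of 0.05: every Gja5 symbol is filled, no Gja4 or Gjc1 symbol is, and 1 Gjb2 symbol lies above 0.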

How the data were processed

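Liver endothelial RNA of 5 Alk1-HEC-KO and 5 control libraries was sequenced on a BGISeq-500, per the labels' protocols. The submitters' processing notes name Trim Galore 0.6.4, kallisto 0.4.6 and the build GRCm38.p6. The authors deposited expected counts (estimated, not whole) and TPM per gene. The step from transcripts to genes is not given in the sources used here. Of 55385 identifiers 55144 matched GENCODE M21, whose GRCm38 coordinates are given.

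Counts were rounded, filtered with filterByExpr (minimum count 10; 15043 genes), scaled by TMM and tested with edgeR 4.0.16 (robust quasi-likelihood, genotype alone, Benjamini-Hochberg over all genes tested). SE is the log2 fold change divided by the square root of F. The procedure was tested on simulated counts of this comparison (14730 genes tested): 55.2% of genes changed 1.5-fold, 86.6% changed 2-fold and 95.5% changed 4-fold were called, and 3.7% of calls were false. The simulation changed 67, 67 and 66 genes at these folds, far fewer than the 2959 called in the data. Its rates may therefore not carry over to the data. No 2 libraries of a group were alike within sampling noise (chi-square per degree of freedom 10.38 to 29.62). Alternatives used DESeq2 1.42.0, limma 3.58.1 (voom, and log2 TPM with pseudocounts of 1 and 0.1), other scaling and filters, a replicate block, a covariate of mean log2 CPM of the hepatocyte list, and left-out libraries; the fit without controls 2 and 4 was chosen after seeing the data.

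The members and lists were chosen with earlier results of these data known. Named genes are the members, other connexins and pannexins that passed the filter, up to 4 called genes per list or the 1 with the smallest p, and the 3 most like each member; marker lists other than Mcam are given by counts, and other genes named were chosen after their values were seen. A few further genes under this rule are not reported here.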

Additional observations from a re-analysis of the deposited data

Results flagged for a closer look

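In groups of 5 libraries, 3 values lay apart from the other 4 by more than 0.71 of the range of their group, in 80 groups examined; chance alone sets apart about 1 in 20 groups. Gja4 was at 700.0 CPM in control 2 and at 225 to 284 CPM in the other controls. Gjb1 was at 5.22 CPM in knockout-labelled library 2 and at 4.06 to 4.36 CPM in the other knockout-labelled libraries. Rgs5, a pericyte marker, was at 42.5 CPM in knockout-labelled library 3 and at 24.0 to 29.2 CPM in the other knockout-labelled libraries.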

How the results depend on the processing

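Of the members, Gja5 kept its direction and its call in 22 of 22 alternatives (log2 fold change 0.60 to 0.87, adjusted p from 6.61e-06 to 0.0395), and Gja4 and Gjc1 were called in none (adjusted p from 0.0547 to 0.705 and from 0.102 to 0.355). The count of members called was 1 in the main test, 3 with DESeq2, 2 with the stricter filter, 2 in the fit that was not robust, and 1 to 3 with 1 library left out; the members called lower were 0, 2, 1, 1 and 0 to 2. Gjb1 passed with DESeq2 (-1.43), the stricter filter (-1.42) and the fit that was not robust (-1.42), and Gjb2 with DESeq2 (-1.70). The log2 fold change of Gjb2 was 0.31 with the hepatocyte covariate. With 1 library left out, log2 fold changes ran from -0.61 to -0.35 for Gja1, -0.98 to -0.42 for Gja4, 0.64 to 0.87 for Gja5, 0.28 to 0.47 for Gjc1, -1.64 to -1.05 for Gjb1 and -1.98 to -1.23 for Gjb2. Over all genes, 2959 were called in the main test (1593 higher, 1366 lower) and 3351 with DESeq2 (1743 and 1608). The stricter filter called 2810 of 13471 genes and the fit that was not robust 3010 of 15043. The number was 1751 of 15043 with the hepatocyte covariate (979 and 772) and 1889 of 15415 without controls 2 and 4 (787 lower). On log2 TPM, limma called 664 lower with a pseudocount of 1 and 668 with 0.1. With 1 library left out, 15177 to 15223 genes were tested and 2315 to 2870 were called (1294 to 1561 higher, 1021 to 1357 lower). Called members of the connexin-related lists were 16 in the main test and 11 to 18 in the alternatives. Among other genes, none of them called, Panx1 turned to 0.0525 without control 5 (range -0.2658 to 0.0525 with 1 library left out), and the macrophage marker Adgre1 to -0.0671 without controls 2 and 4 and -0.0111 without control 4 (range -0.0111 to 0.4397). The causes of these changes were not tested.

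Same-numbered libraries did not deviate together throughout: the correlation of their deviations was -0.29 for number 1 and 0.12 to 0.55 for the others, so the numbers were not taken as a pairing. With the replicate block 2567 genes and 1 member, Gja5, were called. Gjb2, with 10 to 169 counts per library, is the member most limited by depth.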
